A study of Mus musculus with 20 samples.

Results

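In mouse fat, the RNA of 10 marker genes of adipocyte progenitors was followed through the first 14 days of high-fat feeding. These genes are Pdgfra, Pdgfrb, Ly6a, Cd34, Dpp4, Pi16, Zfp423, Zfp521, Dlk1 and Cd24a. They were taken by name from a table of 39179 mouse genes, and all 10 were among the 15254 genes with enough reads to be tested. Epididymal fat, the visceral pad of the mouse abdomen, came from male C57BL6/J mice, an inbred strain with no engineered allele named in the labels. A chow-fed group stood for day 0, and the other groups had eaten a high-fat diet for 2, 4, 6 or 14 days. Each of the 5 groups held 4 libraries, called biological replicates in the labels, and the age of the mice was not given in the sources used here. Chow libraries stood at day 0 only, so diet and passing time cannot be told apart.

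White fat contains, beside the lipid-filled adipocytes, a stroma of fibroblast-like progenitors, vessel cells, immune cells and a covering mesothelium. The progenitors carry the PDGF receptors and the surface proteins encoded by Ly6a and Cd34. A Dpp4-positive and Pi16-positive population of the interstitium is known to give rise to committed preadipocytes in mouse fat, and the zinc finger proteins Zfp423 and Zfp521 act on that commitment in opposite ways. In adult mice, visceral fat is known to form adipocytes anew when a high-fat diet begins. The RNA here came from whole tissue, so fewer cells of a type and less RNA per cell cannot be told apart.

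The 250 bases before the RefSeq start site are shown for Zfp423, the marker that was higher on every high-fat day, and for Dpp4 and Pdgfra, which were lower on day 4. In the GENCODE M21 annotation of build GRCm38, Zfp423 (ENSMUSG00000045333) spans chr8:87661810-87959595 and Dpp4 (ENSMUSG00000035000) spans chr2:62330073-62412231, both on the minus strand, and Pdgfra (ENSMUSG00000029231) spans chr5:75152292-75198215 on the plus strand. The authors' own build and strand setting were not given in the sources used here, and antisense genes overlap Pdgfra, Cd34, Dpp4 and Pi16, so reads of those partners cannot be told apart from theirs. The sequences are RefSeq promoters of build GRCm38.p6, written from 5′ to 3′ on the gene's own strand, with matches to any of 5 short motifs in capitals. The Zfp423 window is chr8:87959596-87959845, the Dpp4 window is chr2:62412232-62412481 (both on the minus strand), and the Pdgfra window is chr5:75152001-75152250 (plus strand). The RefSeq start of Pdgfra lies upstream of the GENCODE start of that gene, so these sources differ on where it begins.
Zfp423: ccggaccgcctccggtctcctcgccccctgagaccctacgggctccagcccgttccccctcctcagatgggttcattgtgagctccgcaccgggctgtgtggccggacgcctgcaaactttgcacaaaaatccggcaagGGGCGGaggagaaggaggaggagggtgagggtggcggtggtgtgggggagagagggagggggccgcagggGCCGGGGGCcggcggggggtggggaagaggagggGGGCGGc
Dpp4: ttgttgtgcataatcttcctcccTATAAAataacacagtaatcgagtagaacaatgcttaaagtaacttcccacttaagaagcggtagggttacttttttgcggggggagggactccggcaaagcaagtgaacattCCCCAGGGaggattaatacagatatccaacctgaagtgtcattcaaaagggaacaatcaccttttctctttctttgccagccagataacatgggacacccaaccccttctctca
Pdgfra: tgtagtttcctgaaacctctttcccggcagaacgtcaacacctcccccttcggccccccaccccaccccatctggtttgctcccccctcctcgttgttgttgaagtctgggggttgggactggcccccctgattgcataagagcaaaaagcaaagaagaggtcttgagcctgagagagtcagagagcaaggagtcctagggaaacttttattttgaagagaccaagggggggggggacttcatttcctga
The motifs were CCCNNGGG (the core bound by EBF factors), CCAAT (NF-Y), GGGCGG (the GC box), TATAAA (the TATA box) and GCCNNNGGC (AP-2), each searched on both strands. The Zfp423 window held GC boxes that began 111 and 7 bases before the start and an AP-2 match at 41 bases. The Dpp4 window held a TATA box match at 227 bases and an EBF core at 114 bases. The Pdgfra window held no match, which says only that these letters are not in it. Of 32851 RefSeq promoters of the same length, 32.7% held the GC box, 13.7% the AP-2 letters, 12.4% the TATA box and 11.8% the EBF core, so each match is common and describes the sequence alone. A second RefSeq start of Zfp423, chr8:87804440-87804689, held a GC box and an EBF core. Promoters of the same table were found for 6 of the 10 genes.

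Total counts per library ranged from 1916829 to 38832429, and levels are given as CPM, counts scaled to a common library total after TMM normalization. Adipocyte genes such as Plin4 and Lep were high in every library, with 36600 to 80100 CPM summed over 13 genes, so markers of the labelled tissue were present. Libraries stood apart in a few respects that touch the markers. Chow replicate 4 held 234 CPM summed over 10 epithelial genes, while the remaining chow libraries held 11.9 to 15.6 CPM. Day 2 replicate 1 had the smallest total. Day 4 replicate 1 had 173 CPM of 20 cell cycle genes, against 769 to 934 CPM in the other day 4 libraries, and day 6 replicate 4 had 581 CPM, against 145 to 228 CPM in the other day 6 libraries. With scaling by library size alone, the median change over all genes was -0.14 (log2) for day 2, -0.13 for day 4, -0.14 for day 6 and -0.10 for day 14.

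Levels of different genes were compared per kilobase of exon. Ly6a was highest, with 76.3 ± 12.2 CPM per kilobase (SD over 20 libraries), followed by Cd34 with 21.7 ± 6.71 and Pdgfrb with 17 ± 3.24. Then came Zfp423 with 9.58 ± 1.69, Pi16 with 7.11 ± 4.68, Pdgfra with 6.79 ± 2.42, Cd24a with 5.41 ± 5.48 and Dpp4 with 5.12 ± 2.53 CPM per kilobase. Zfp521 measured 1.93 ± 0.394 and Dlk1, which encodes an inhibitor of adipocyte formation, 0.134 ± 0.061 CPM per kilobase. Cd34 and Pdgfrb did not differ beyond their spread, nor did any neighbours in the run from Zfp423 to Dpp4. The order from Zfp423 to Dpp4 depended on the group, since on chow Cd24a averaged 11, Pdgfra 9.74, Dpp4 8.61, Pi16 7.46 and Zfp423 6.89 CPM per kilobase. Steps larger than the SDs on either side were Ly6a to Cd34, Pdgfrb to Zfp423, Dpp4 to Zfp521 and Zfp521 to Dlk1. Dlk1 rested on 284 reads in all, with 1 to 60 reads per library, and its values are imprecise for that reason.

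**Figure D1:**
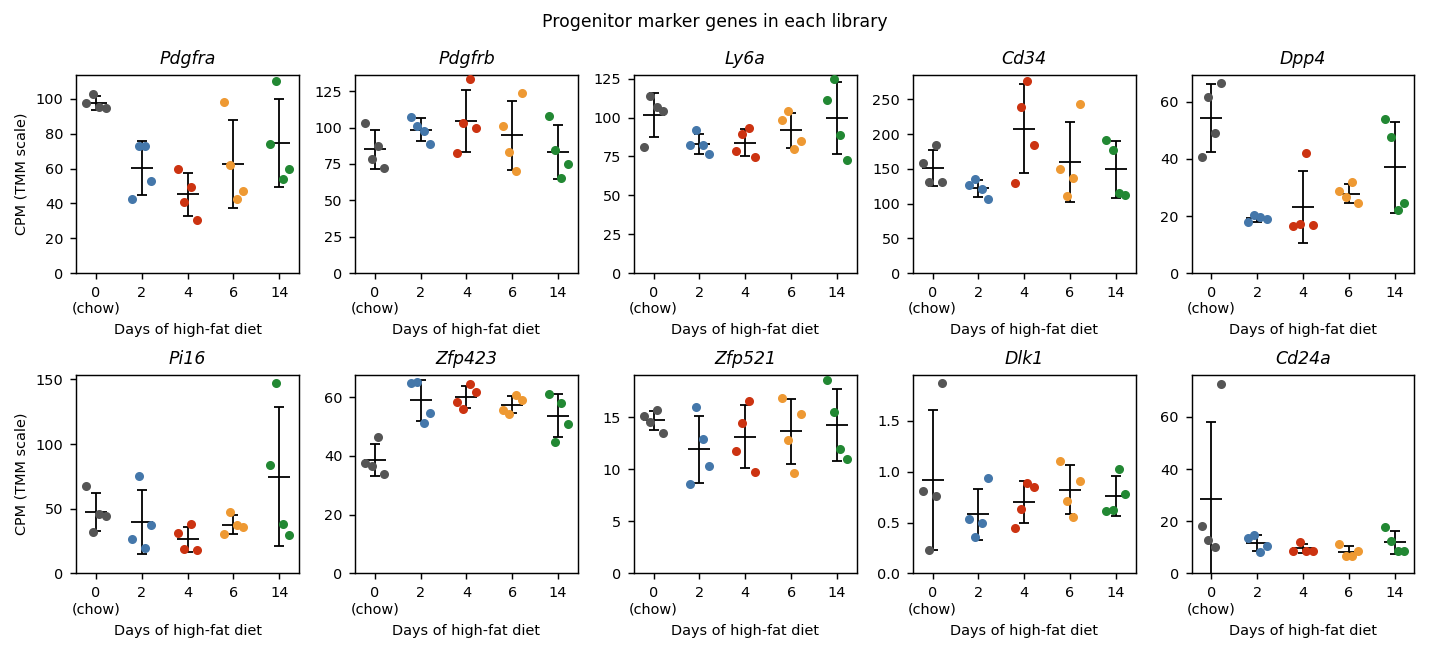
CPM on the TMM scale (vertical axis, linear from 0) of each progenitor marker in every library, by days of high-fat diet (horizontal axis, with chow at day 0). Points are libraries and bars are the mean ± SD of 4. Zfp423 lay at 51.1 to 65.0 CPM on day 2 and at 33.7 to 46.4 CPM on chow, Dpp4 lay at 17.8 to 20.5 CPM on day 2 and at 40.5 to 66.7 CPM on chow, and 1 chow library of Cd24a lay at 72.4 CPM.

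Against chow, single markers moved in both directions. On day 2, 2 of 10 differed (1 higher, 1 lower), where 4.39% of all tested genes did (2.43% higher, 1.96% lower). On day 4, 4 of 10 differed (1 higher, 3 lower), where 35.3% of all genes did (18% higher, 17.3% lower), so the markers' share was near the background. On day 6, 2 of 10 differed (1 higher, 1 lower), where 3.45% of all genes did (1.99% higher, 1.46% lower). On day 14, 1 of 10 was higher and none lower, where 1.18% of all genes differed (0.878% higher, 0.302% lower). At an unadjusted p under 0.05, 4 of 10 markers differed on day 2 (25.8% of all genes), 4 on day 4 (46.2%), 4 on day 6 (24.4%) and 2 on day 14 (18%). The markers' median log2 change was -0.30 on day 2 beside -0.03 over all genes, -0.40 on day 4 beside -0.02, -0.18 on day 6 beside -0.01 and -0.03 on day 14 beside -0.01. These comparisons share the chow libraries. Across all 5 groups 4 of 10 markers differed (edgeR quasi-likelihood test, Benjamini-Hochberg adjusted), where 19.6% of all genes did: Zfp423 (adjusted p = 0.00789), Dpp4 (0.0106), Cd24a (0.0325) and Pdgfra (0.0438). That call held for Zfp423 and Dpp4 in all 20 fits without 1 library, for Cd24a in 14 of them and for Pdgfra in 8 of them. Without chow replicate 4 the edgeR adjusted p of Cd24a was 0.219, and without day 4 replicate 4 that of Pdgfra was 0.115. Without chow replicate 4 and day 2 replicate 1 together, 1 marker was higher and 2 were lower on day 4, and none was called on days 2, 6 or 14.

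**Figure D2:**
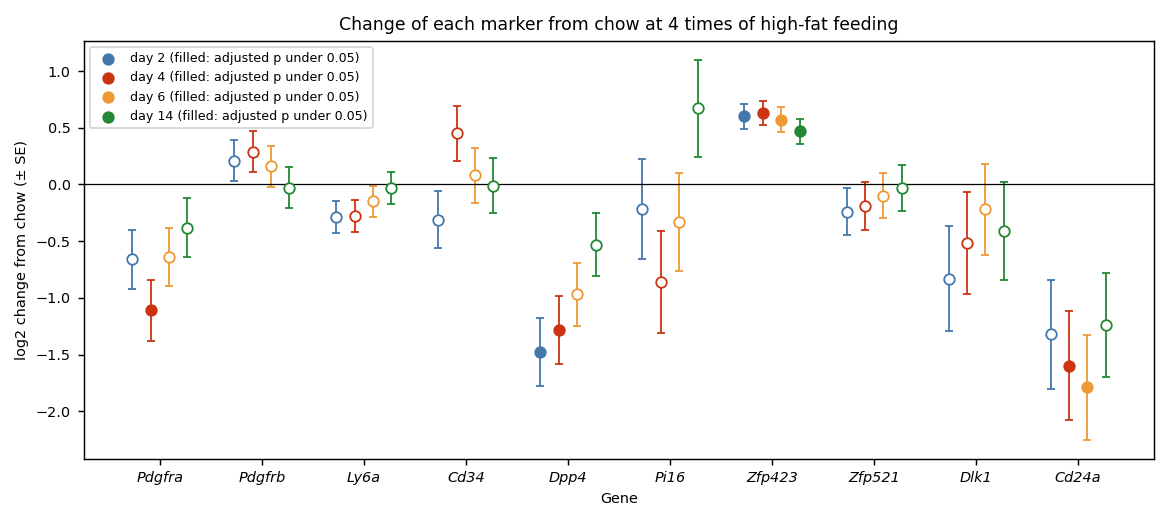
Log2 change from chow (vertical axis) of each marker (horizontal axis) on days 2, 4, 6 and 14. Bars are ± SE derived from the F value of the edgeR test, and filled points have an adjusted p under 0.05. Zfp423 is filled on all 4 days at 0.47 to 0.63, Dpp4 on days 2 and 4, Pdgfra on day 4 and Cd24a on days 4 and 6.

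Zfp423 encodes a zinc finger transcription factor that marks committed preadipocytes and promotes their differentiation, and it is also known to restrain thermogenic genes in white adipocytes. Its level was 37.7, 36.7, 46.4 and 33.7 CPM on chow, 64.7, 65.0, 51.1 and 54.7 CPM on day 2, and 58.4, 55.9, 64.4 and 61.7 CPM on day 4. It was 55.6, 54.3, 60.8 and 59.1 CPM on day 6 and 61.0, 44.8, 58.1 and 50.7 CPM on day 14. Every library of days 2, 4 and 6 lay above every chow library, and on day 14 only replicate 2, at 44.8 CPM, fell below the highest chow library. Zfp423 rose on day 2 by 0.60 ± 0.11 (log2, SE; edgeR quasi-likelihood test with Benjamini-Hochberg adjusted p = 0.0119), and on day 4 by 0.63 ± 0.11 (0.0012). It rose on day 6 by 0.57 ± 0.11 (0.0244) and on day 14 by 0.47 ± 0.11 (0.0419), a fold of 1.55 on day 4 and of 1.39 on day 14. No change of Zfp423 from day 2 to 4, 4 to 6 or 4 to 14 passed the test, and the change of day 14 against day 4 was -0.16, with a 95% interval of -0.40 to 0.07.

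The day 4 rise of Zfp423 was called in all 17 alternative fits, with changes of 0.53 to 0.74, and the day 2 rise in all 8 fits without 1 library. On day 2 it was 0.52 (edgeR adjusted p = 0.13) without chow replicate 4 and day 2 replicate 1 together, the libraries with epithelial genes and with the smallest total. On day 6 the call was lost without chow replicate 4 (0.50, edgeR adjusted p = 0.0985), day 6 replicate 2 (0.60, 0.051), replicate 3 (0.54, 0.0803) or replicate 4 (0.56, 0.0797). On day 14 it was lost without chow replicate 2 (0.45, edgeR adjusted p = 0.0711), chow replicate 4 (0.41, 0.141), or day 14 replicate 1 (0.41, 0.091), 3 (0.43, 0.127) or 4 (0.50, 0.0602). The value stayed between 0.39 and 0.67 in every alternative for these later days, with direction kept.

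Zfp521, a related zinc finger protein known in mice to oppose adipocyte commitment through Ebf1 and Zfp423, measured 14.7 ± 0.926 CPM on chow (SD, n = 4). It was 12 ± 3.24, 13.2 ± 3.02, 13.7 ± 3.16 and 14.3 ± 3.47 CPM on days 2, 4, 6 and 14. The groups overlapped throughout, and the edgeR log2 change on day 4 was -0.19 with a 95% interval of -0.63 to 0.25. Of 16 further regulators of commitment, 1 rose and 4 fell on day 4, a share below the 35.3% of all genes called. Ebf3 rose by 0.55 ± 0.11 (log2, SE; edgeR quasi-likelihood adjusted p = 0.00186). Its relative Ebf1 had 107 CPM on day 4 and 179 CPM on chow, a fall of 0.74 ± 0.15 (0.00195), and measured 0.83 ± 0.15 higher on day 14 than on day 4 (0.0268). Ebf2 fell by 0.93 ± 0.29 (edgeR adjusted p = 0.0198), Bmp4, a ligand that induces commitment, fell by 1.08 ± 0.35 (0.0228), and Cebpd, an early adipogenic factor, fell by 1.32 ± 0.39 (0.015). The list's median log2 change on day 4 was 0.05, beside -0.02 over all genes.

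Pdgfra encodes the receptor for PDGF-A and other PDGF ligands, and its protein is the usual handle for sorting fibroblast-like progenitors. It measured 97.9, 103, 95.3 and 94.5 CPM on chow, 42.6, 73.0, 73.2 and 52.7 CPM on day 2, and 59.8, 41.0, 49.5 and 30.3 CPM on day 4. It measured 98.3, 61.9, 42.6 and 47.4 CPM on day 6 and 74.3, 110, 54.1 and 59.7 CPM on day 14. All 8 libraries of days 2 and 4 lay below every chow library, as did 3 of 4 libraries on day 6 and 3 of 4 on day 14. Day 6 replicate 1 lay in the chow range and day 14 replicate 2 above it. On day 4 Pdgfra averaged 45.1 ± 12.5 CPM, against 97.6 ± 3.77 CPM on chow (SD, n = 4 each), a fall of 1.11 ± 0.27 (log2, SE; edgeR quasi-likelihood test with Benjamini-Hochberg adjusted p = 0.00485). It was called in all 17 alternative fits, at -1.30 to -0.96.

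The other days did not pass for Pdgfra in the full edgeR fit. The change was -0.66 ± 0.26 on day 2 (edgeR adjusted p = 0.126), -0.64 ± 0.26 on day 6 (0.143) and -0.38 ± 0.26 on day 14 (0.47). Without day 6 replicate 1, the library at 98.3 CPM, the other day 6 libraries averaged 50.6 ± 10.1 CPM (SD, n = 3) and the change was -0.94 (edgeR adjusted p = 0.0302). Day 14 was 0.73 ± 0.27 above day 4 (edgeR adjusted p = 0.087), and 0.92 above it without day 4 replicate 1 (0.0382).

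Pdgfrb, the receptor of mural cells and of perivascular progenitors, measured 103, 78.2, 87.0 and 71.9 CPM on chow, 107, 101, 97.8 and 88.4 CPM on day 2, and 82.3, 103, 133 and 100 CPM on day 4. It measured 101, 83.2, 70.0 and 124 CPM on day 6 and 108, 84.4, 65.5 and 74.8 CPM on day 14. Each high-fat group overlapped chow, and the edgeR log2 change on day 4 was 0.29 with a 95% interval of -0.08 to 0.67, a range that includes no difference. On that day the fitted changes of the PDGF receptors had opposite signs, and a test of Pdgfra against Pdgfrb was not made. Among 10 PDGF ligand and signalling genes, 3 were called on day 4, a share below the 35.3% of all genes, and all 3 rose: the ligand Pdgfb by 0.80 ± 0.19 (log2, SE; edgeR quasi-likelihood adjusted p = 0.00524), the ligand Pdgfa by 0.68 ± 0.24 (0.033) and the adaptor Grb2 by 0.25 ± 0.07 (0.0161). On day 2, Pdgfd fell by 0.59 ± 0.16 (edgeR adjusted p = 0.0485) and Plat, whose protease activates PDGF-CC, fell by 0.83 ± 0.23 (0.0445). Without the epithelial and the smallest library together both day 2 calls were lost, and 2 of the 10 rose on day 4.

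Ly6a, which encodes the stem cell antigen used to sort progenitors, varied least of the 10 by its ratio of highest to lowest library, 1.72. It averaged 102 ± 14.3 CPM on chow, 83.2 ± 6.42 CPM on day 2, 83.9 ± 8.70 CPM on day 4, 91.8 ± 11.4 CPM on day 6 and 99.5 ± 23.2 CPM on day 14 (SD, n = 4). Each high-fat group overlapped chow. The edgeR log2 change was -0.28 on day 4, with a 95% interval of -0.59 to 0.02 and an adjusted p = 0.13, and -0.39 (0.0439) without chow replicate 1, the lowest chow library.

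Cd34 encodes a sialomucin of progenitors, vessel endothelium and blood-forming cells. It measured 130, 239, 277 and 185 CPM on day 4 and 159, 131, 185 and 131 CPM on chow, and the groups overlapped through day 4 replicate 1. The change on day 4 was 0.45 ± 0.24 (log2, SE; edgeR quasi-likelihood adjusted p = 0.156), and 0.62 (0.0467) without that library, whose fellows averaged 234 ± 46.5 CPM (SD, n = 3). On day 6 replicate 4 measured 243 CPM and the others 111 to 150 CPM. Day 2, with 127, 135, 121 and 106 CPM, was below day 4 by a log2 difference of 0.76 ± 0.25 (edgeR adjusted p = 0.0935), which passed without day 4 replicate 1 (0.93, 0.0159).

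Cd34 varied with vessel genes and with stromal genes from library to library. With each group's mean removed, its log2 level correlated over 20 libraries at 0.86 with the mean of 12 endothelial genes. The value was 0.81 for 11 mural cell genes, 0.71 for 18 fibroblast and stromal genes and 0.68 for 20 cell cycle genes. The libraries share depth and tissue make-up, so these values are descriptions. Day 4 replicate 1 had an endothelial mean of -0.13 against 0.44 to 0.69 in its fellows (log2, relative to chow), and 5 of 12 endothelial genes rose on day 4, where 18% of all genes did, among them Kdr by 0.65 ± 0.16 and Egfl7 by 0.84 ± 0.18 (edgeR adjusted p = 0.00541 and 0.00287). Of the 12, 2 rose without chow replicate 4 and day 2 replicate 1 together. Summed endothelial levels were 1250 to 2340 CPM on day 4 and 1100 to 1420 CPM on chow, and no gene of the list was at 0 in any library. Pdgfrb followed the endothelial, mural and stromal lists too, at 0.83, 0.74 and 0.63. The part of these cells in the Cd34 and Pdgfrb values was not tested.

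Dpp4 encodes a dipeptidyl peptidase on the surface of interstitial progenitors, and is also known from other tissues and from the mesothelium. It measured 40.5, 61.6, 48.9 and 66.7 CPM on chow, 17.8, 20.5, 19.7 and 18.9 CPM on day 2, and 16.5, 17.2, 41.9 and 16.7 CPM on day 4. It measured 28.6, 26.5, 31.9 and 24.4 CPM on day 6 and 53.9, 47.5, 22 and 24.7 CPM on day 14. No library of days 2 or 6 reached a chow library, day 4 overlapped only through replicate 3, and day 14 split into a pair in the chow range and a pair below it. Dpp4 fell by 1.48 ± 0.30 on day 2 (log2, SE; edgeR quasi-likelihood test with Benjamini-Hochberg adjusted p = 0.0144) and fell by 1.28 ± 0.30 on day 4 (0.00395). Its change was -0.97 ± 0.28 on day 6 (edgeR adjusted p = 0.0592) and -0.53 ± 0.28 on day 14 (0.329). In the full fit the change was smaller at each later time. Without day 4 replicate 3, however, the day 4 change was -1.70, larger than the -1.48 of day 2. No change of Dpp4 from day 2 to 4, 4 to 6 or 4 to 14 was called, and other pairs of high-fat days were not tested.

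The day 4 fall of Dpp4 was called in all 17 alternative fits, from -1.70 without day 4 replicate 3 to -1.14 without day 4 replicate 1. Without replicate 3 the day 4 libraries averaged 16.8 ± 0.395 CPM (SD, n = 3). The day 2 fall was called in 12 of 17. It missed the threshold without chow replicate 2 (-1.41, edgeR adjusted p = 0.0538), chow replicate 4 (-1.37, 0.0549), day 2 replicate 1 (-1.46, 0.0506), day 2 replicate 4 (-1.46, 0.0668), or chow replicate 4 and day 2 replicate 1 together (-1.32, 0.136). On day 6 it passed without chow replicate 1 (-1.09, edgeR adjusted p = 0.0363), with library size scaling (-1.12, 0.0416), with DESeq2 (-0.98, 0.0211) and with limma-voom (-0.95, 0.0329). Day 14 was 0.75 ± 0.30 above day 4 (edgeR adjusted p = 0.109), and 0.93 above it without day 14 replicate 3 (0.0486).

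Mesothelial genes moved with Dpp4. Of 11 tested, 10 fell on day 2, 11 on day 4 and 3 on day 6. Over all genes 1.96%, 17.3% and 1.46% fell on those days. The list's medians were -1.44, -1.75 and -0.91, beside -0.03, -0.02 and -0.01 over all genes. Upk3b, which encodes a uroplakin of the mesothelium, had 44.1 CPM on day 4 and 144 CPM on chow, and fell by 1.72 ± 0.31 (log2, SE; edgeR quasi-likelihood adjusted p = 0.00125). Lrrn4 fell by 1.90 ± 0.33 (edgeR adjusted p = 0.0012), Rspo1, a Wnt pathway agonist, fell by 1.88 ± 0.26 (0.000654), and Nkain4 fell by 1.74 ± 0.26 (0.000814). Summed levels were 392 to 503 CPM on chow, 122 to 188 CPM on day 2, 79.9 to 233 CPM on day 4, 174 to 305 CPM on day 6 and 174 to 370 CPM on day 14. The list's 233 CPM on day 4 belonged to replicate 3, the same library that was high in Dpp4, and its other day 4 libraries held 79.9 to 114 CPM. On day 14, replicates 1 and 2 held 370 and 326 CPM and replicates 3 and 4 held 174 and 180 CPM, the split seen for Dpp4. With group means removed, Dpp4 correlated at 0.87 with the list's mean over 20 libraries, and the genes most like it were Cyp2s1 (0.970), Gpm6a (0.893) and Msln (0.877), the gene of mesothelin. The defining markers were not at 0: only Krt18 had no read, in day 4 replicate 2. The part of mesothelium in the Dpp4 values was not tested. Without chow replicate 4 and day 2 replicate 1 together, all 11 still fell on day 4, while on day 2 the median was -1.36 with no gene called in the edgeR fit.

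**Figure D3:**
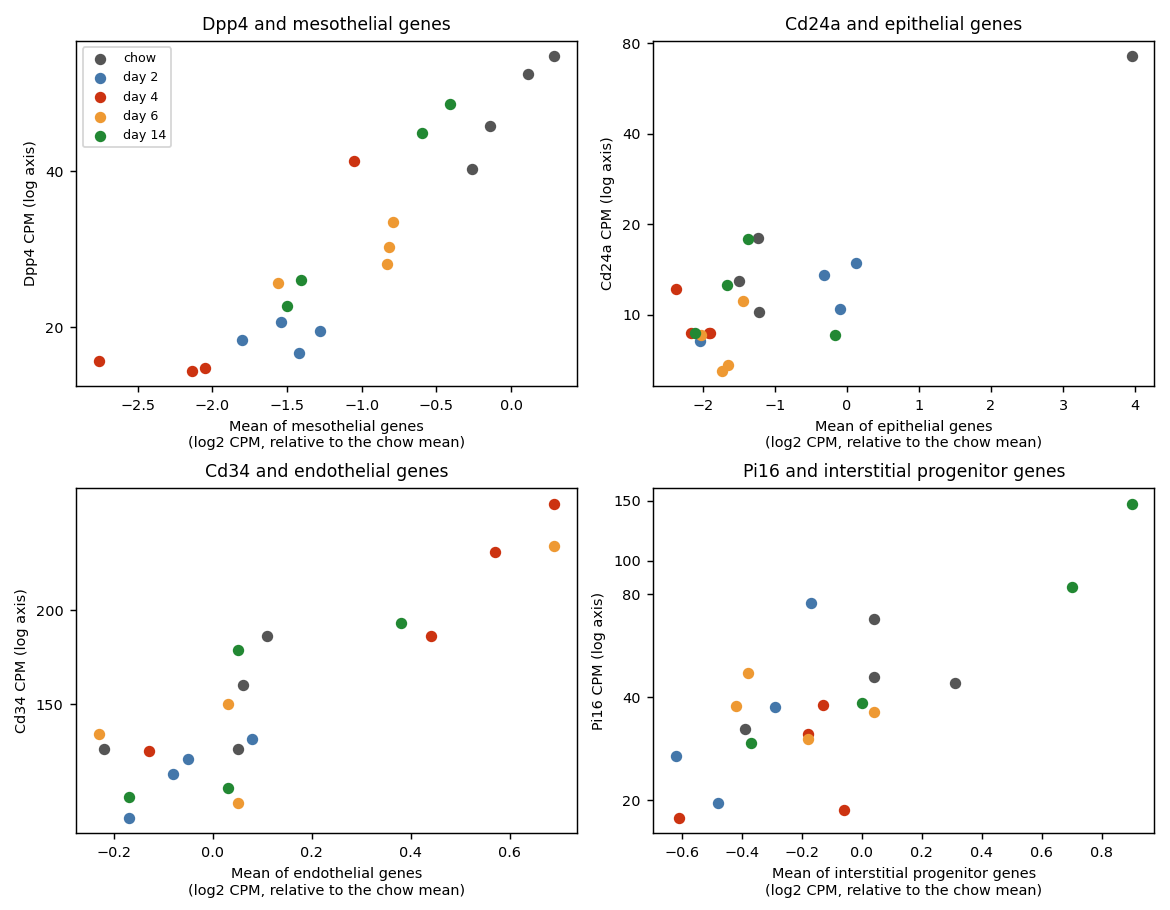
Level of a marker in each library (CPM, log axis) against the mean of a gene list (log2 CPM relative to the chow mean), coloured by group, for Dpp4 and mesothelial, Cd24a and epithelial, Cd34 and endothelial, and Pi16 and interstitial progenitor genes. Day 4 replicate 3 is the red point at 41.9 CPM of Dpp4, and chow replicate 4 is the grey point at 72.4 CPM of Cd24a and a list mean of 3.95.

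Pi16, a secreted peptidase inhibitor that marks the same interstitial population, was not called against chow on any day. It measured 67.6, 32.4, 45.7 and 44.1 CPM on chow, 27, 75.2, 19.6 and 37.4 CPM on day 2, and 31.3, 18.7, 38.0 and 17.8 CPM on day 4. It measured 30.3, 47.2, 37.6 and 36.3 CPM on day 6 and 84.1, 147, 38.6 and 29.5 CPM on day 14, where replicates 1 and 2 stood above all 12 libraries of days 2, 4 and 6. The change on day 2 was -0.22, with a 95% interval of -1.16 to 0.72, an interval that overlaps that of Dpp4 (-2.12 to -0.85). A test of Pi16 against Dpp4 was not made. On day 4 it was -0.86 ± 0.45 (log2, SE; edgeR adjusted p = 0.144), and -0.88 (0.0456) in a fit of only the groups compared. On day 14 it was 0.67 ± 0.43 (edgeR adjusted p = 0.444).

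Between high-fat days, Pi16 was the marker called on day 14 against day 4, at 1.53 ± 0.46 (log2, SE; edgeR quasi-likelihood test with Benjamini-Hochberg adjusted p = 0.044), or 1 of 10 markers where 9.36% of all genes differed (4.58% higher, 4.78% lower). It averaged 74.9 ± 53.8 CPM on day 14 and 26.4 ± 9.83 CPM on day 4 (SD, n = 4 each). The groups overlapped, and the call was lost without day 14 replicate 2 (0.98, edgeR adjusted p = 0.204), day 14 replicate 1 (1.49, 0.0949), or day 4 replicate 2 (1.42, 0.116), 3 (1.73, 0.0748) or 4 (1.38, 0.161). For day 4 against day 2 none of 10 was called by edgeR (1 at an unadjusted p under 0.05, Cd34; 1 by DESeq2; 0 by limma-voom), where 2.4% of all genes differed (2.14% higher, 0.256% lower). For day 6 against day 4 none was called by edgeR, DESeq2 or limma-voom, and 0 at an unadjusted p under 0.05, where 0% of all genes was called by edgeR, 2492 at an unadjusted p under 0.05 and 53 by DESeq2.

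Further genes of the interstitial population, 9 in all, gave mixed directions. Of these 3 were called on day 4, a share near the 35.3% of all genes. On day 4, Sema3c rose by 1.04 ± 0.24 (log2, SE; edgeR quasi-likelihood adjusted p = 0.00363), while Bmp7 fell by 2.16 ± 0.63 (0.0143) and Limch1 fell by 0.63 ± 0.22 (0.0343). Cd55 was not called against chow on day 4 (0.63 ± 0.24, edgeR adjusted p = 0.0523) or on day 14 (0.79 ± 0.24, 0.0964). On day 14 against day 4, 3 of 9 rose, where 4.58% of all genes did. These were Dact2 by 1.82 ± 0.44 (edgeR adjusted p = 0.0278), Efhd1 by 1.00 ± 0.26 (0.0301) and Limch1 by 0.79 ± 0.22 (0.0377), with a list median of 0.79. Day 14 replicates 1 and 2, the libraries high in Pi16, had list means of 0.70 and 0.90 against 0.00 and -0.37 in replicates 3 and 4 (log2, relative to chow). Of 9 genes of committed preadipocytes, 1 rose and 3 fell on day 4, a share near the 35.3% of all genes called. Col15a1, a basement membrane collagen, rose by 1.04 ± 0.23 (edgeR adjusted p = 0.00298). Fmo2 fell by 1.37 ± 0.29 (edgeR adjusted p = 0.00274), Gpc3 fell by 1.15 ± 0.25 (0.00331) and F3, which encodes tissue factor, fell by 1.00 ± 0.28 (0.0108). Without the epithelial and the smallest library together, 1 interstitial gene rose and none fell, and the committed list kept counts of 1 up and 3 down on day 4.

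Cd24a encodes a small glycoprotein that marks early adipocyte progenitors and is also abundant on epithelia and immature blood cells. It measured 18, 12.9, 10.2 and 72.4 CPM on chow, 13.5, 14.9, 8.18 and 10.4 CPM on day 2, and 8.71, 12.2, 8.66 and 8.70 CPM on day 4. It measured 11.1, 6.80, 6.51 and 8.54 CPM on day 6 and 17.9, 12.5, 8.66 and 8.55 CPM on day 14. The groups overlapped, and chow replicate 4 alone stood at 72.4 CPM, while the other chow libraries averaged 13.7 ± 3.93 CPM (SD, n = 3). In the full fit Cd24a fell by 1.60 ± 0.48 on day 4 (log2, SE; edgeR quasi-likelihood test with Benjamini-Hochberg adjusted p = 0.0163) and fell by 1.79 ± 0.46 on day 6 (0.0439).

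Without chow replicate 4 the Cd24a changes were -0.54 on day 4 (edgeR adjusted p = 0.154) and -0.73 on day 6 (0.201), neither of them called. The day 4 call was also lost without day 4 replicate 4 (-1.57, edgeR adjusted p = 0.0525), with limma-voom (-1.26, 0.104) and when chow and day 4 were fitted alone (-1.64, 0.0747). The day 6 call was also lost without day 6 replicate 2 (-1.70, edgeR adjusted p = 0.107), 3 (-1.70, 0.124) or 4 (-1.80, 0.132). With no filter (-1.78, edgeR adjusted p = 0.085) or a replicate block (-1.62, 0.0544) it was lost too. The same held when chow and day 6 were fitted alone (-1.81, edgeR adjusted p = 0.155) and with limma-voom (-1.39, limma-voom adjusted p = 0.0897). Chow replicate 4 was the library with 234 CPM of epithelial genes. That list held at most 17.3 CPM in any other library, and between 1 and 6 of its 10 genes were at 0 in all but 1 of those. Its Epcam was at 0 in 4 libraries, 3 of them on day 4. With group means removed, Cd24a correlated at 0.79 with the list's mean over 20 libraries, chow replicate 4 among them, and the genes most like it were Napsa (0.934), Espn (0.931) and Ccdc40 (0.902). The part of epithelium in the other Cd24a values was not tested.

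Dlk1, an imprinted gene for a transmembrane inhibitor of adipogenesis, was near the limit of detection. It measured 0.445, 0.630, 0.888 and 0.850 CPM on day 4 and 0.814, 0.232, 0.759 and 1.87 CPM on chow, with the highest value again in chow replicate 4. The edgeR log2 change on day 4 was -0.52, with a 95% interval of -1.48 to 0.44 and an adjusted p = 0.385. Without chow replicate 4 it was 0.04 (edgeR adjusted p = 0.954), so that library set the sign. Among 12 tested genes of Notch signalling and of the imprinted Dlk1 locus, 3 were called on day 4, a share below the 35.3% of all genes, and all 3 rose. These were the maternally expressed non-coding RNA Mirg by 1.13 ± 0.41 (log2, SE; edgeR quasi-likelihood adjusted p = 0.0392), the Notch target Hey1 by 0.73 ± 0.26 (0.033) and the protease gene Adam17 by 0.30 ± 0.09 (0.0156). Mirg was also higher on day 6, by 1.47 ± 0.38 (edgeR adjusted p = 0.0439), at a mean of 1.07 CPM over all libraries. Without the epithelial and the smallest library together none of the 12 was called on day 4 or on day 6.

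Broad stromal genes moved in both directions on day 4. Of 18 tested, 8 rose and 3 fell, where 18% of all genes rose and 17.3% fell, so the share that fell was near the background. Their median was 0.57, beside -0.02 over all genes. The collagen gene Col3a1 rose by 0.95 ± 0.21 (log2, SE; edgeR quasi-likelihood adjusted p = 0.00331), Serpinf1 by 1.12 ± 0.23 (0.00195) and Dpt by 0.89 ± 0.16 (0.00125). The small proteoglycan gene Dcn fell by 1.25 ± 0.23 (edgeR adjusted p = 0.00138), Gsn fell by 1.49 ± 0.34 (0.00383) and Clec3b fell by 0.99 ± 0.28 (0.013). Dpt was also higher on day 6 (0.91 ± 0.16, edgeR adjusted p = 0.0195) and on day 14 (0.80 ± 0.16, 0.0201). Without the epithelial and the smallest library together 6 rose and 3 fell on day 4, and no stromal gene was called on day 6 or day 14, so both later calls of Dpt were lost.

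Gene lists of other cell types of the pad were followed on day 4, when 18% of all tested genes rose and 17.3% fell. All 20 cell cycle genes rose, with a median of 3.38, and the proliferation marker Mki67 had 145 CPM on day 4 and 9.79 CPM on chow (3.82 ± 0.68 on the log2 scale, SE; edgeR quasi-likelihood adjusted p = 0.00125). Of 11 mural cell genes 3 were called, a share below the 35.3% of all genes, and all 3 rose, Cspg4 by 1.36 ± 0.31 (edgeR adjusted p = 0.00352), Acta2 by 1.28 ± 0.38 (0.0163) and Cox4i2 by 0.87 ± 0.29 (0.0263), with summed levels of 1160 to 1730 CPM on day 4 and 1180 to 1250 CPM on chow. When chow replicate 4 and day 2 replicate 1 were left out together, 2 of the 11 rose. Of 13 adipocyte genes 4 were called, a share below the 35.3% of all genes. Of these 1 rose, the hormone gene Lep by 2.05 ± 0.32 (edgeR adjusted p = 0.000926), and 3 fell. Of 12 macrophage genes 1 fell, Mertk, and of 11 lymphocyte genes 1 fell, Cd3e. The abundant macrophage gene Lyz2 had 433 CPM on day 4 and 593 CPM on chow, and was not called (edgeR adjusted p = 0.109). Of 4 tested neutrophil genes 1 rose, S100a8, and of 7 tested epithelial genes 6 fell, with chow replicate 4 in the chow mean. Without chow replicate 4 and day 2 replicate 1 together, 5 epithelial genes were tested and 1 fell. The part of these cells in the marker values was not tested.

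**Figure D4:**
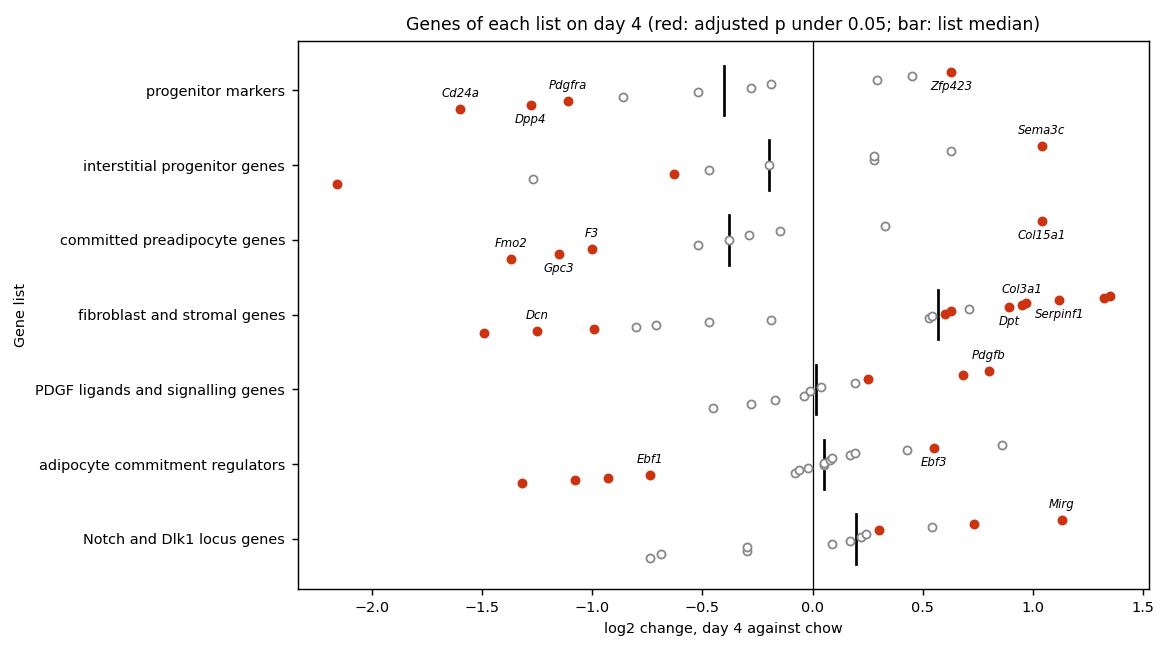
Log2 change on day 4 against chow (horizontal axis) of the progenitor markers and of 6 lists of related genes (vertical axis), with red points at an adjusted p under 0.05 and a bar at each list's median. Names are given for genes picked by the naming rule. The marker median lies at -0.40 and that of fibroblast and stromal genes at 0.57.

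The markers were also compared with each other from library to library. With group means removed, Cd34 and Pdgfrb correlated at 0.84 over 20 libraries, Pdgfra and Zfp521 at 0.68, Pdgfrb and Zfp521 at 0.65, and Dpp4 and Ly6a at 0.65. Dpp4 and Pi16 reached 0.50, Pdgfra and Pdgfrb 0.17, and Zfp423 lay between -0.37 and 0.30 with each of the genes named here. Over the libraries without that step, Zfp423 and Pdgfra stood at -0.70 and Zfp423 and Dpp4 at -0.65, values that hold the group differences already given. These correlations share libraries and depth and carry no test.

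The genes most like each other marker, by the same measure over 20 libraries, were as follows. Pdgfra was most like the matrix gene Ltbp1 (0.949), Ifi204 (0.929) and Ces2g (0.921), and Pdgfrb was most like the mural cell receptor gene Notch3 (0.941), Zfp366 (0.922) and Gm38399 (0.889). Cd34 was most like Nrros (0.926), Prcp (0.921) and Podnl1 (0.908), and Ly6a like Ctsf (0.877), Coro2b (0.877) and Kdelc2 (0.875). Pi16 was most like the signalling ligand gene Wnt10b (0.833), Gfpt2 (0.819) and Prickle3 (0.801). Zfp521 was most like Sp100 (0.949), P2rx7 (0.928) and Arhgef3 (0.928), whereas Zfp423 had weaker likenesses with Fam217a (0.781), H3f3a-ps2 (0.746) and Tor1a (0.697). Dlk1 was most like Psmc3ip (0.848), Hoga1 (0.811) and Zbtb18 (0.807), on 284 reads in all.

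**Figure D5:**
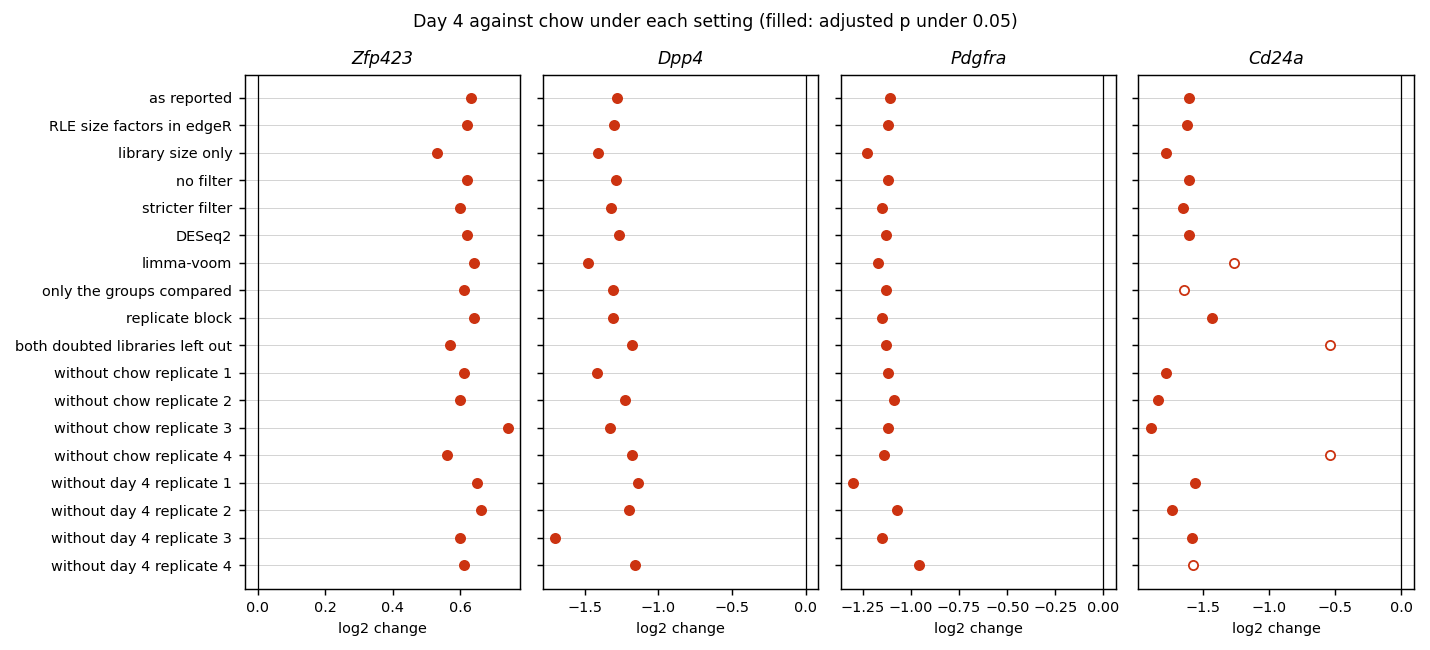
Log2 change on day 4 against chow (horizontal axis) of the 4 called markers under each alternative setting (vertical axis), filled at an adjusted p under 0.05. Zfp423, Dpp4 and Pdgfra are filled in every row, and Cd24a moves to -0.54 and is open without chow replicate 4.

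The plot of alternative settings shows the day 4 changes of the called markers. Those of Zfp423 kept to 0.53 to 0.74, those of Pdgfra to -1.30 to -0.96 and those of Dpp4 to -1.70 to -1.14, while those of Cd24a spread over -1.89 to -0.54.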

How the data were processed

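RNA was sequenced from 20 epididymal fat samples with Illumina's TruSeq kit, per the labels' protocols. The authors deposited raw counts of reads per gene as whole numbers, with 1 column per library and Ensembl gene IDs. CASAVA, STAR, featureCounts, limma and R 3.0 appear without a role in the submitters' processing notes, and genome build, annotation and strand setting were not given in the sources used here. Without strand, reads of a gene and its antisense or overlapping partner cannot be told apart. GENCODE M21 lists such partners for Pdgfra, Cd34, Dpp4, Pi16 and Zfp521, and none for the other 5 markers.

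Columns were matched to samples by library name, and symbols to IDs through a table of gene names (37607 of 39179). Genes were filtered with filterByExpr (minimum count 10, total 15), which kept 15254. The counts were scaled by TMM and tested in R 4.3.3 with the quasi-likelihood test of edgeR 4.0.16. All 20 libraries entered 1 fit on group alone, which left 15 residual degrees of freedom. Benjamini-Hochberg adjustment ran over all tested genes within a comparison, and a gene was called when its adjusted p was under 0.05. The SE of a log2 change is its absolute value divided by the square root of the F value of the edgeR test. Intervals of log2 changes are 95% intervals from that SE and a t distribution with 15 degrees of freedom. The test did not use that t distribution, so an interval need not match its p-value exactly. Each p-value tests a difference between groups against the spread between libraries within groups. Exon lengths and gene coordinates came from GENCODE M21 and promoters from RefSeq. Likeness of genes is Pearson's r over 20 libraries of log2 CPM (prior count 2) after subtraction of group means. Simulated counts with known changes were used to test the fit.

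The markers, the lists and the naming rule were chosen with earlier results of these data known. The rule picked all 10 markers and the 3 genes most like each of them. It also picked up to 4 called genes of each list, ranked by the adjusted p across all groups. With none called, it picked up to 2 of highest level. Not every gene it picked is described in the text, and of the cell cycle genes only Mki67 is. Bmp7, Limch1, Pdgfa, Grb2, Ebf2, Bmp4, Cebpd, Hey1, Adam17, Gsn, Clec3b, Cox4i2, Mertk, Cd3e, Plat and Krt18 were named after their values were seen.

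Alternatives were RLE size factors, library size only, no filter, a stricter filter (a mean of 2 CPM, with 1 CPM reached in 4 libraries), DESeq2 1.42.0, limma-voom (limma 3.58.1), fits of just the compared groups, a block for replicate number, each library left out, and chow replicate 4 and day 2 replicate 1 left out together.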

Additional observations from a re-analysis of the deposited data

Results flagged for a closer look

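Among 50 groups of 4 libraries, each a marker on a day, 3 had a library far from the other 3, and chance alone flags about 1 in 20 groups. For each of these the gap to the nearest library is given as a share of the group's whole range. Dpp4 in day 4 replicate 3 had a gap of 0.972, at 41.9 CPM against 16.5 to 17.2 CPM in the other day 4 libraries. Cd24a in chow replicate 4 had a gap of 0.875, at 72.4 CPM where its chow fellows had 10.2 to 18 CPM. Cd24a in day 4 replicate 2 had a gap of 0.986, at 12.2 CPM against 8.66 to 8.71 CPM in the other day 4 libraries. The changes of Pi16 from chow differed between day 14 and day 4 by 1.53 (log2, edgeR quasi-likelihood test with Benjamini-Hochberg adjusted p = 0.044), with 0.67 on day 14 and -0.86 on day 4.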

How the results depend on the processing

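No log2 change of a marker reversed where it was called. On day 4 the calls of Zfp423, Dpp4 and Pdgfra held in all 17 alternatives of each, while the day 4 call of Cd24a held in 12 of 17, the day 2 calls of Zfp423 in 16 and Dpp4 in 12, and the calls of day 6, day 14 and day 14 against day 4 in 7 to 11. With library size only, 0 of 10 markers were called on day 14, where 1 was reported. With no filter the number was 1 on day 6, 0 on day 14, 0 for day 14 against day 4 and 2 for any difference, where 2, 1, 1 and 4 were reported. DESeq2 called 1 for day 4 against day 2 (Cd34, 0.74, adjusted p = 0.0473) and limma-voom 0 for day 14 against day 4. With only the groups compared it was 0 on day 6, 0 on day 14 and 0 for day 14 against day 4. With chow replicate 4 and day 2 replicate 1 left out together it was 0 on day 2, 0 on day 6, 0 on day 14, 0 for day 14 against day 4 and 1 for any difference. Leaving out each library in turn gave 1 to 2 markers called on day 2, 3 to 5 on day 4, 0 to 3 on day 6, 0 to 1 on day 14, 0 to 1 for day 4 against day 2, 0 to 0 for day 6 against day 4, 0 to 2 for day 14 against day 4 and 2 to 5 for any difference. Over all genes the counts called moved as well. On day 2, 670 were called, 7 without chow replicate 4 and day 2 replicate 1 and 1412 with DESeq2. On day 6, 527 were called, 0 with only the groups compared and 1180 with DESeq2, and on day 4, 5381 were called and 3975 to 5495 under these settings. On day 14, 180 were called, 37 without both libraries and 659 with DESeq2, and for day 4 against day 2 366 were called, 0 with library size only and 912 with DESeq2. For day 14 against day 4, 1428 were called and 441 with no filter, for day 6 against day 4 0 and 53 with DESeq2, and for any difference 2994 and 755 without both libraries. With each library left out in turn these counts were 43 to 1758 on day 2, 3213 to 5721 on day 4, 7 to 1343 on day 6, 45 to 482 on day 14, 0 to 2240 for day 4 against day 2, 0 to 737 for day 6 against day 4, 0 to 2641 for day 14 against day 4 and 976 to 4042 for any difference. The cause of these shifts was not tested. Over 40 pairs of libraries with the same replicate number in different groups, the correlation of their deviations was -0.19 to 0.52, with 12 above 0.1. Pairs of different numbers were not compared, so these values cannot decide whether replicate numbers pair the libraries. With the replicate number as a block, 1 marker was called on day 6 and 0 for day 14 against day 4. Low counts limit Dlk1, and its precision covers counting error and the spread between libraries.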
